A study of Rattus norvegicus with 6 samples.

Results

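The bone matrix and mineralization genes described here, in rat bone marrow mesenchymal stem cells, are Alpl, Spp1, Ibsp, Bglap, Sparc, Mgp, Phospho1, Enpp1, Ogn and Omd. They encode non-collagen proteins of bone matrix, phosphatases and an enzyme that makes pyrophosphate. They were found by gene symbol, and all 10 were among the 37209 symbols of the deposited count table. The CSE libraries, 3 in number, came from wild-type primary cells of rat femur exposed to 3% cigarette smoke extract (CSE, medium through which smoke has been drawn) for 6 h. The 3 other libraries came from wild-type cells of the same source that spent 6 h in serum-free medium without the extract. The labels do not say whether the extract was given in serum-free medium too, so an effect of the extract and one of serum cannot be told apart in any comparison below. Before that, both groups had grown to 80% confluence in αMEM with 10% fetal bovine serum. The sources used here do not say how many rats gave the cells or whether replicate libraries are separate cultures. P-values therefore measure the spread among libraries alone, which may be technical.

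Bone mineral forms where phosphate and calcium meet on a collagen matrix, and cells set the balance between phosphate, which feeds the crystals, and pyrophosphate, which blocks them. PHOSPHO1 releases phosphate inside the small vesicles where the first crystals form, ALPL (tissue-nonspecific alkaline phosphatase) breaks pyrophosphate down at the cell and vesicle surface, and ENPP1 makes pyrophosphate from nucleotides. Around them, acidic and leucine-rich matrix proteins bind mineral, collagen or integrins, and in marrow stromal cells many of these genes rise as the cells become osteoblasts.

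Library totals lay between 19433637 and 22589327 counts with CSE and between 15958621 and 18651194 in the control. Levels below are counts per 1000000 counts of the TMM-scaled library size (normalized CPM). TMM is a scaling that lets libraries of different composition be compared. Of 13390 genes tested with edgeR, 9894 (73.9%) differed between the groups at an adjusted p below 0.05, and in 10143 (75.8%) the libraries of the groups did not overlap. A called difference was thus the usual state of a gene in this comparison. The median log2 fold change over all tested genes was -0.02. It was lower by 0.19 with scaling by total counts alone and by 0.14 with upper-quartile scaling. Of the called genes 49.2% were higher with TMM, 37.2% with total counts alone and 40.3% with upper-quartile scaling.

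The mesenchymal label was checked against 11 stromal markers, all of which passed the filter on low counts. Thy1 averaged 1427 ± 52.2 CPM with CSE and 1192 ± 49.5 CPM in the control (n = 3 each, SD). Of the 11 markers 4 were called higher, 5 lower and 2 in neither direction, beside 36.3% higher and 37.5% lower of all tested genes. The chemokine gene Cxcl12 fell to 84.0 ± 5.80 CPM with CSE, against 378 ± 12.1 CPM in the control (log2 fold change -2.17), and the growth factor receptor genes Pdgfra and Pdgfrb fell by 0.97 and 0.87 on the log2 scale. Of the higher markers, Cd44 rose by 1.09 and Vcam1 by 2.51 on the log2 scale. Vcam1 was near the floor, with 1.87 ± 0.210 CPM with CSE and 0.324 ± 0.139 CPM in the control. Its control libraries all had fewer than 10 counts, so Vcam1 passed the filter through its CSE libraries alone. Lepr was low as well, with 1.22 ± 0.162 CPM with CSE and 1.02 ± 0.296 CPM in the control. The CD73 gene Nt5e was low, with 3.98 ± 0.767 CPM with CSE and 7.41 ± 1.04 CPM in the control. Macrophage and osteoclast transcripts were present as well. All 12 such markers passed the filter and none was at 0, with Ptprc at 49.3 CPM with CSE and 61.9 CPM in the control on average. Of 6 endothelial markers only Tek was tested, and Emcn was at 0 in every library. Of 5 adipocyte markers only Fabp4 was tested. Of 7 chondrocyte markers 3 were tested. The aggrecan gene Acan had 991 ± 58.0 CPM with CSE and 1426 ± 16.1 CPM in the control. Matn3 was higher with CSE, by 1.41 on the log2 scale, at 1.995 ± 0.697 CPM beside 0.742 ± 0.235 CPM in the control. It had 8, 17 and 17 counts in the control libraries. Only with CSE did all 3 libraries reach the 10 counts that the filter asks for. Comp passed in neither direction, and Col2a1 had at most 8 counts in a library. The part of these marker changes in the results below was not tested.

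Phospho1 rose and Enpp1, Mgp and Ibsp fell in the exposed cells, under every alternative tried, while Sparc and Spp1 rose by less, with calls that ended with scaling by total counts alone. Alpl and Ogn fell with overlapping libraries, and Bglap and Omd lay below the filter on low counts. Of the 8 members that passed the filter, 3 were called higher (36.3% of all tested genes were) and 5 lower (37.5% of all tested genes were). Their median log2 fold change was -0.27. The libraries did not overlap in 6 of the 8, beside the 75.8% of all tested genes. Every tested member had at least 47 counts in each library, so none passed the filter through its higher group alone. With scaling by total counts alone 1 was higher and 5 were lower, and with upper-quartile scaling 2 were higher and 5 lower.

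**Figure D1:**
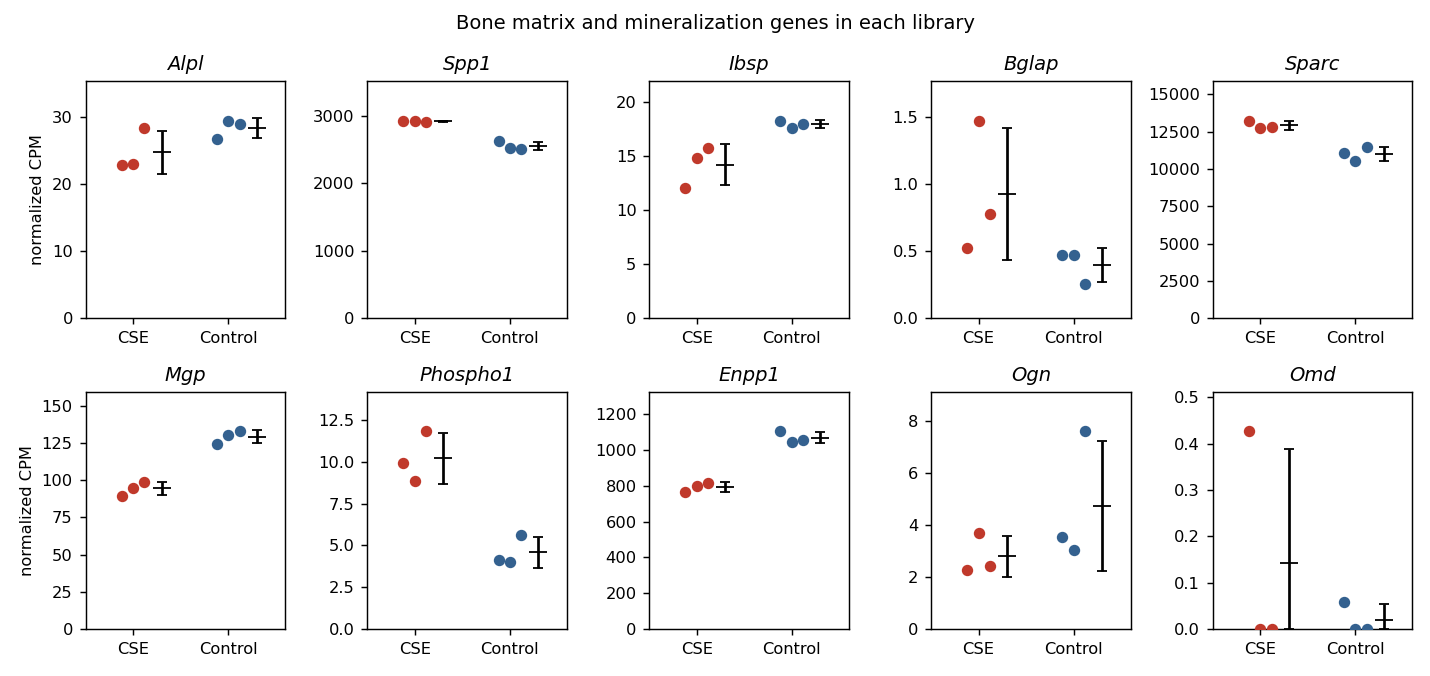
Normalized CPM of each of the 10 genes, 1 point per library, on axes that start at 0. CSE libraries stand left of control libraries, and black bars give the mean ± SD (n = 3), cut at 0 for Omd. Groups are apart in Phospho1, Enpp1, Mgp, Ibsp, Spp1, Sparc and, narrowly and at under 1.5 CPM, Bglap.

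The phosphatase gene Phospho1 had the largest rise among the 8 tested members. It stood at 9.96, 8.83 and 11.8 CPM in the CSE libraries, against 4.12, 4.01 and 5.65 CPM in the control libraries. Every exposed library lay above every control library, by a margin wider than the spread in either group. The fold change was 2.21, or 1.15 ± 0.16 on the log2 scale (SE), with an adjusted p of 3.9e-06 in edgeR's quasi-likelihood test. Of all tested genes 91.1% had a lower fold change. The counts behind these levels were 601 in all CSE libraries and 258 in all control libraries. The rise was 1.32 on the log2 scale without the third control library, the highest of the controls.

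Because Phospho1 moved most among the tested members, the sequence around its start is shown, from RefSeq on the build GRCr8 (chr10:81258560-81258859, plus strand, 250 bases before to 50 after the start). A sequence was matched for 8 of the 10 members, Mgp and Enpp1 being the other two. Capitals mark matches to the AP-1 motif TGANTCA and to the dioxin response core GCGTG on either strand.
Phospho1: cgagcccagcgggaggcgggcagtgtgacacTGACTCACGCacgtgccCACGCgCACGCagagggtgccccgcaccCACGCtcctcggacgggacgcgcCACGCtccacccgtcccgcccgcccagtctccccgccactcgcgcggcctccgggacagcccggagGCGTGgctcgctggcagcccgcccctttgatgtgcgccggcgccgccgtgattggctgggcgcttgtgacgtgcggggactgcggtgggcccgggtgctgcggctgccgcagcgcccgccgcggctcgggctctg
The window held 1 match to TGANTCA, 219 to 213 bases before the start, and 6 to GCGTG, the first of which overlaps the AP-1 match. It also held 1 match to the E-box CANNTG, which overlaps that same first GCGTG match. Of 33469 rat windows of this length, 7.33% held TGANTCA, 29.7% held GCGTG and 72.1% held CANNTG. Among the 8 members with a sequence, only Phospho1 held TGANTCA, and GCGTG was also found near Alpl. Such matches describe letters in a window and do not show binding.

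Alpl, the marker enzyme of early osteoblasts, was nearly level. Its CSE libraries had 22.9, 22.96 and 28.4 CPM and its control libraries 26.7, 29.5 and 28.9 CPM. CSE replicates 1 and 2 lay below all controls, and CSE replicate 3 lay among them. The log2 fold change was -0.20 ± 0.09 (SE), with a 95% interval of -0.38 to -0.02 and an edgeR adjusted p of 0.0473. This call ended in 6 of 13 alternatives: with DESeq2 (adjusted p = 0.124), with DESeq2's size factors in edgeR (0.0735), and without CSE replicate 1 (0.210), CSE replicate 2 (0.206), Control replicate 2 (0.119) or Control replicate 3 (0.0873), all of them adjusted p values. Within each library, Phospho1 had 436, 385 and 416 counts per 1000 Alpl counts with CSE and 155, 136 and 195 in the control. This ratio needs no scaling between libraries, and the groups were apart by 1.36 on the log2 scale.

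Enpp1, whose product makes pyrophosphate, fell. Its level was 765, 798 and 818 CPM in CSE libraries and 1105, 1045 and 1056 CPM in control libraries. The groups were far apart relative to their spread, with coefficients of variation of 3.33% with CSE and 2.96% in the control. The log2 fold change was -0.43 ± 0.04 (SE, edgeR adjusted p = 8.8e-08) and stayed between -0.62 and -0.40 over 13 alternatives. The counts of Alpl per 1000 Enpp1 counts were 29.9, 28.8 and 34.8 with CSE and 24.2, 28.2 and 27.4 in the control. The highest control nearly reached the lowest exposed library here, and the mean log2 ratios, -5.01 ± 0.14 with CSE and -5.24 ± 0.12 in the control (n = 3, SD), differed by 0.23. Phospho1 counts per 1000 Enpp1 counts were 13.0, 11.1 and 14.5 with CSE and 3.73, 3.83 and 5.35 in the control, which is 3.01-fold higher with CSE. These ratios are counts over counts and depend on transcript length, so only their change between groups can be read.

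**Figure D2:**
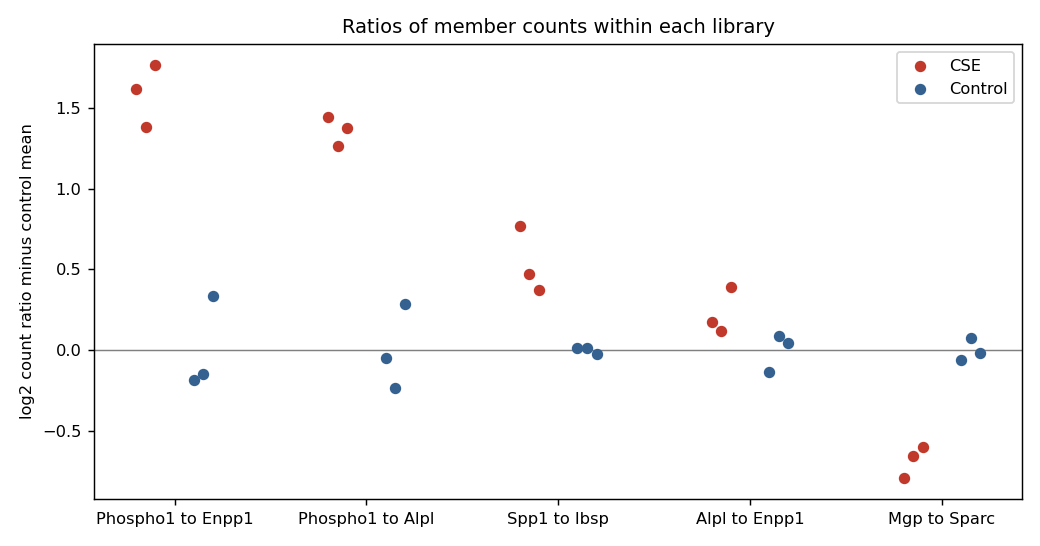
Log2 ratio of the counts of a pair of members within each library, minus the mean of the control libraries, 1 point per library with CSE left of control. The ratio of Spp1 to Sparc counts is not drawn. Its groups overlapped, with a log2 difference of -0.04 between CSE and control. The Phospho1 ratios are higher in every CSE library, the Mgp to Sparc ratio is lower in every CSE library, and the Alpl to Enpp1 groups nearly touch.

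With TMM scaling the acidic matrix protein genes Spp1 and Ibsp moved in opposite directions. Spp1 encodes osteopontin, a phosphoprotein that binds mineral and integrins, and Ibsp encodes bone sialoprotein, which binds integrins and can start mineral crystals. Spp1 had 2927, 2919.6 and 2910.4 CPM in CSE libraries, against 2622, 2522 and 2512 CPM in control libraries. Ibsp had 12.05, 14.8 and 15.8 CPM in CSE libraries, against 18.3, 17.6 and 17.96 CPM in control libraries. In these normalized values the groups did not overlap in either gene, with Spp1 higher and Ibsp lower in every exposed library. As a share of all counts Spp1 overlapped between groups. It was 0.2731%, 0.2755% and 0.2712% in CSE libraries and 0.2790%, 0.2706% and 0.2670% in control libraries. The share of Ibsp stayed lower in every exposed library. The log2 fold change was 0.19 ± 0.04 for Spp1 (SE, edgeR adjusted p = 2.3e-04). It was -0.34 ± 0.10 for Ibsp (SE, edgeR adjusted p = 0.0060). Spp1 lost its call with total counts alone (0.01, adjusted p = 0.899) and with upper-quartile scaling (0.06, adjusted p = 0.189). Relative to the median of all genes it was 0.21 higher under each of these scalings. Because a change of scaling shifts all genes almost alike, that value could hardly differ and is no further support. The ratio of Spp1 to Ibsp counts, which no scaling touches, was 1.45-fold higher with CSE and apart in every library. Spp1 is also a gene of macrophages and osteoclasts. The summed level of their 12 markers was 1954 to 2021 CPM in the CSE libraries and 1781 to 1839 CPM in the control libraries. Most of this sum was the lysozyme gene Lyz2, with 1414 CPM with CSE and 1175 CPM in the control on average. The other 11 markers summed to 555 to 591 CPM in the CSE libraries and 624 to 644 CPM in the control libraries, so without Lyz2 the sum was lower with CSE. With TMM scaling 4 of the 12 markers were called higher, 4 were lower and 4 passed in neither direction. Over all tested genes 36.3% were higher and 37.5% lower. Of the higher ones Acp5 kept its call in all 13 alternatives, while Lyz2 lost it with total counts alone and Tyrobp with total counts alone and upper-quartile scaling. Cd68 lost its call in 9 of 13 alternatives and turned negative with total counts alone. The 4 lower ones kept their calls in all 13 alternatives. These were Cd14 (-1.45 on the log2 scale), Ptprc (-0.33), Mrc1 (-0.28) and Csf1r (-0.25). The part of the 12 markers in the rise of Spp1 was not tested. In bulk RNA, fewer cells of a type and less RNA per cell cannot be told apart.

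In the rat assembly GRCr8 Spp1 and Ibsp lie in the same cluster on chromosome 14, with Mepe between them and Dmp1 and Dspp beyond. The upstream sequences of Spp1 and Ibsp are shown because they differ in direction with TMM scaling. Both are on the minus strand (Spp1 chr14:5619755-5620054, Ibsp chr14:5757193-5757492), and capitals mark matches to CANNTG and to the antioxidant response motif TGACNNNGC.
Spp1: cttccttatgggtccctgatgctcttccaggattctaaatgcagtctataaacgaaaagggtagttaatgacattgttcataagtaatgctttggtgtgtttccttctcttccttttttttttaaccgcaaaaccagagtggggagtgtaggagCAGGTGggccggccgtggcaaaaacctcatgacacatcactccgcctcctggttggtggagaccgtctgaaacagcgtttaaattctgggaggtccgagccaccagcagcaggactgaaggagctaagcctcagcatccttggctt
Ibsp: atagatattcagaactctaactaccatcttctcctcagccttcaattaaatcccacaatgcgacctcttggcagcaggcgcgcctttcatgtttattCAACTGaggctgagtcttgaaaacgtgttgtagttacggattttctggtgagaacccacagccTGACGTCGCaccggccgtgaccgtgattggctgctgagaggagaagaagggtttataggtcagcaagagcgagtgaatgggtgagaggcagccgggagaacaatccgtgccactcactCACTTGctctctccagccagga
Spp1 held 1 match to CANNTG, and Ibsp held 2 and, 90 to 82 bases before its start, 1 match to TGACNNNGC, which 12.1% of all windows held and which Bglap also held. Mepe, a mineral-binding phosphoglycoprotein gene of late osteoblasts and osteocytes, had 7, 4 and 6 counts in CSE libraries and 13, 19 and 15 in control libraries. Its log2 fold change was -1.52 ± 0.42 (SE, edgeR adjusted p = 0.0036). No CSE library reached the 10 counts that the filter asks for. Mepe thus passed the filter through its higher group, the control, alone. Dmp1 was below the filter on low counts, with at most 9 counts in a library, and Dspp was at 0 in every library.

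The Gla proteins bind calcium through glutamates that are modified with vitamin K. Mgp, whose product keeps soft tissue and cartilage from mineralizing, fell. It had 89.7, 94.9 and 99.0 CPM in CSE libraries and 124, 131 and 133 CPM in control libraries. The groups did not overlap, and the log2 fold change was -0.45 ± 0.05 (SE, edgeR adjusted p = 5.3e-07), between -0.64 and -0.41 over 13 alternatives. Mgp counts per 1000 Sparc counts were 6.77, 7.45 and 7.75 with CSE and 11.3, 12.4 and 11.6 in the control, lower in every exposed library.

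Bglap encodes osteocalcin, the Gla protein of mature osteoblasts, and was barely detected. It had 11, 27 and 15 counts in CSE libraries and 8, 9 and 5 counts in control libraries, or 0.522, 1.47 and 0.775 CPM with CSE and 0.471, 0.474 and 0.252 CPM in the control. In normalized CPM all exposed libraries lay above the controls, but CSE replicate 1, at 0.522 CPM, barely cleared Control replicate 2, at 0.474 CPM. In CSE replicate 1 a difference of 1 count equals 0.0474 CPM. As a share of all counts the groups overlapped. CSE replicate 1, at 4.87e-05%, lay below Control replicates 1 and 2, at 5.01e-05% and 5.09e-05%. Bglap did not reach the filter on low counts and has no call in the comparison of 13390 genes. Without the filter, over 21252 genes, its log2 fold change was 1.19 ± 0.48 (SE, edgeR adjusted p = 0.0270), beside 1.14 for Phospho1 in the same fit. Leaving out a library changed the filter and let it be tested in 4 of 6 cases, with values from 0.92 to 1.49, and without Control replicate 3 it did not pass (adjusted p = 0.122). Its upstream sequence is shown because it carries the letters of a RUNX motif, AACCACA, in capitals (GRCr8 chr2:176137269-176137568, minus strand).
Bglap: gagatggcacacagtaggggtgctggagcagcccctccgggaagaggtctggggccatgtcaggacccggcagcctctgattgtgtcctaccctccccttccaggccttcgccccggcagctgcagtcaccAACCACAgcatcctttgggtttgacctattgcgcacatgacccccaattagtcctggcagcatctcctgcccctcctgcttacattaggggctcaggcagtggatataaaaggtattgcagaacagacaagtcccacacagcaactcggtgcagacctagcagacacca
The match lay 119 to 113 bases before the start, and 5.57% of all windows held this motif. It was the only match among the 8 members with a sequence. RUNX2, the factor that binds this motif and drives osteoblast formation, is encoded by Runx2. That gene had 53.8 ± 1.31 CPM with CSE and 41.4 ± 3.25 CPM in the control (n = 3, SD). The log2 fold change of Runx2 was 0.38 ± 0.06 (SE, edgeR adjusted p = 4.4e-05). Of the 7 transcription regulators described below, 2 were called higher, Runx2 among them, and 3 lower. The part of any of them in the Bglap counts was not tested.

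Sparc, the gene of the collagen-binding glycoprotein osteonectin, rose slightly. It had 13247, 12743 and 12784 CPM in CSE libraries, against 11039.9, 10554 and 11472.5 CPM in control libraries. Every exposed library lay above every control library. The log2 fold change was 0.23 ± 0.04 (SE, edgeR adjusted p = 6.0e-05). Total counts alone gave 0.04 (adjusted p = 0.313), and upper-quartile scaling gave 0.09 with an adjusted p of 0.0498. Sparc made up 1.24%, 1.202% and 1.19% of all counts in CSE libraries and 1.17%, 1.13% and 1.22% in control libraries, so its share of the raw counts overlapped between groups. Relative to the median of all genes Sparc was 0.25 higher on the log2 scale under all 3 scalings. A change of scaling shifts all genes almost alike, so this value could hardly differ and is no further support.

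**Figure D3:**
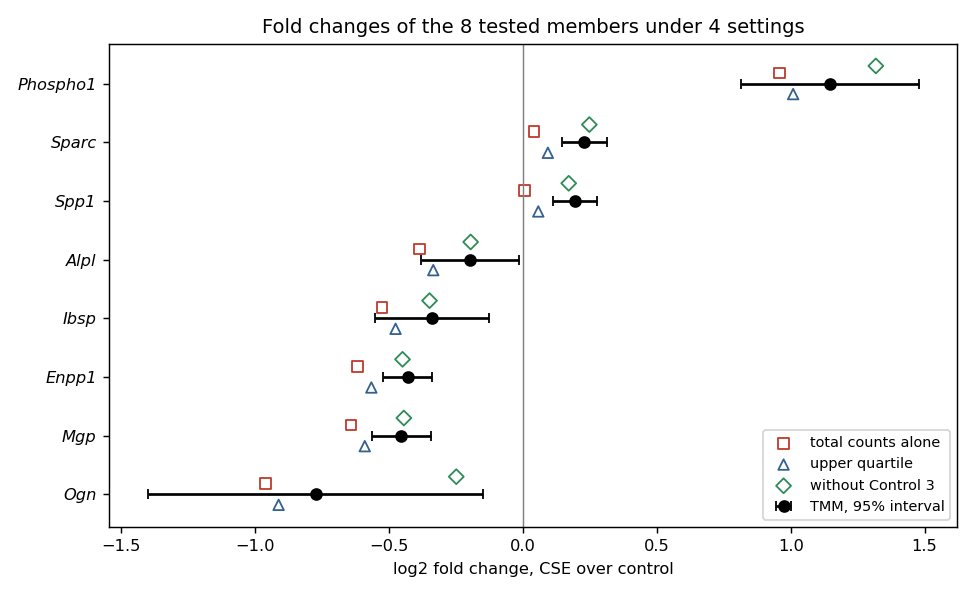
Log2 fold change of CSE over control for the 8 tested members. Black points with bars are the TMM value and its 95% interval, and open symbols are the values with total counts alone, with upper-quartile scaling and without the third control library. Phospho1 stays between 0.96 and 1.32, and Enpp1, Mgp and Ibsp stay below 0 in all settings drawn, while Spp1 and Sparc come close to 0 with total counts and Ogn moves to -0.25 without the third control.

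Ogn and Omd encode osteoglycin and osteomodulin, small leucine-rich proteoglycans that bind collagen. They are neighbours on chromosome 17 of GRCr8, followed by Aspn, the asporin gene of the same family. Ogn had 2.28, 3.71 and 2.43 CPM in CSE libraries and 3.53, 3.06 and 7.62 CPM in control libraries. The groups overlapped, and Control replicate 3 stood well above the other controls, with 151 counts beside 60 and 58. The log2 fold change of -0.77 ± 0.30 (SE, edgeR adjusted p = 0.0259) became -0.25 without Control replicate 3 (adjusted p = 0.393). The call also ended without CSE replicate 1 (adjusted p = 0.105) or CSE replicate 3 (adjusted p = 0.0869). The coefficient of variation of the control libraries was 52.9%, where counting error alone gives 10.6%. In GRCr8 Ogn and Omd both overlap Cenpp, which has no row of that symbol in the count table. Reads of overlapping genes cannot be told apart when the strand setting is not stated.

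Aspn was also highest in Control replicate 3 and lowest among the controls in Control replicate 2, as was Ogn. It had 4.79, 5.73 and 4.03 CPM in CSE libraries and 10.6, 5.17 and 14.3 CPM in control libraries. Its log2 fold change of -1.05 ± 0.26 (SE, edgeR adjusted p = 0.0014) was -0.70 without Control replicate 3 (adjusted p = 0.0146) and -1.38 without Control replicate 2 (adjusted p = 1.7e-06). Omd had 9 counts in CSE replicate 1, 1 count in Control replicate 1 and 0 in the other libraries. Without the filter it did not pass (edgeR adjusted p = 0.119). A count of 0 allows up to 0.151 to 0.164 CPM in those 4 libraries, by counting error only.

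The members also differed in how tightly their libraries agreed. With CSE the coefficient of variation of the tested members ran from 0.277% for Spp1 to 28.03% for Ogn, and in the control from 1.97% for Ibsp to 52.9% for Ogn. Ibsp and Alpl were more scattered with CSE, at 13.6% and 12.9%, than in the control, at 1.97% and 5.21%. For Ibsp counting error alone gives 6.01% with CSE and 5.48% in the control. For Alpl it gives 4.54% with CSE and 4.35% in the control, and for Spp1 0.418% with CSE. The control value of Ibsp and the CSE value of Spp1 thus lay below counting error. Such a low spread among 3 libraries cannot be read as a trait of the gene.

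Genes whose levels over the 6 libraries were most like those of the 3 called members with the largest changes were listed by the root mean square difference of centred log2 CPM over 13390 genes. Nearest to Phospho1 were Crcp (0.10), Sipa1l2 (0.10) and Mmrn2 (0.11). Crcp averaged 26.1 ± 1.88 CPM with CSE and 11.7 ± 2.74 CPM in the control (n = 3, SD). Nearest to Ogn were Prdm11 (0.17), LOC103693862 (0.18) and Galnt16 (0.19). Nearest to Mgp were Wwc2 (0.02), Gnb4 (0.02) and Ptger4 (0.03). The pattern of Ogn rests on Control replicate 3, as given above.

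Among other genes that handle phosphate, pyrophosphate and mineral vesicles, Slc20a1 had the largest change. It encodes the phosphate importer PiT-1, and its levels were 801, 839.7 and 944 CPM in CSE libraries and 153, 148 and 150.2 CPM in control libraries. The groups were far apart, with a fold change of 5.73 (log2 2.52 ± 0.06 SE, edgeR adjusted p = 2.1e-16). This list held 13 genes, of which 10 were tested. Among these, 4 rose, 3 fell and 3 passed in neither direction, beside 36.3% higher and 37.5% lower of all tested genes. The median log2 fold change was -0.03. Anxa2 (0.54 ± 0.04) and Anxa5 (0.42 ± 0.04), annexin genes whose products are found in matrix vesicles, rose, while Anxa6 of the same family fell (-0.41 ± 0.05). The second phosphate importer gene Slc20a2 was higher by 0.27 ± 0.06, a call that ended with total counts alone and with upper-quartile scaling (highest adjusted p = 0.257). Nt5e, which turns AMP into adenosine and phosphate outside the cell, was at -0.90 ± 0.17, and the nucleoside transporter gene Slc29a1 at -0.58 ± 0.05. Ankh, which encodes a membrane transporter that raises pyrophosphate outside the cell, had 158 CPM with CSE and 159 CPM in the control on average and did not pass (edgeR adjusted p = 0.984). It was called lower with total counts alone and with upper-quartile scaling, down to -0.19. The Enpp1 paralogue Enpp3 did not pass either (-0.07 ± 0.15). Abcc6 and Phex were at 0 in every library. Phex lies on chromosome X, where 562 of 573 named protein-coding genes in the table were at 0 in all libraries. The biglycan gene Bgn, also on chromosome X, was at 0 as well. A 0 for Phex or Bgn therefore cannot be read as a lack of expression.

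Among genes that modify the matrix proteins, Fam20c, which encodes the kinase that phosphorylates osteopontin and related proteins, fell to 27.7 ± 1.43 CPM with CSE, against 69.6 ± 3.12 CPM in the control (n = 3, SD, log2 fold change -1.33 ± 0.06 SE, edgeR adjusted p = 3.9e-12). Of the 8 genes listed for late mineral proteins 3 were tested. Fam20c and Mepe were lower, Mepe having passed the filter through the control group alone. The podoplanin gene Pdpn was higher (0.33 ± 0.06, adjusted p = 0.0537 with total counts alone). Over all tested genes 37.5% were lower and 36.3% higher. Dspp, Sost and Fgf23 were at 0 in every library. For the vitamin K step that Mgp and Bglap proteins need, Ggcx, the carboxylase gene, and Vkorc1, which recycles the vitamin, were at 0.19 ± 0.05 and 0.25 ± 0.07. Both calls ended with total counts alone and with upper-quartile scaling. Gas6, another Gla protein gene, fell (-0.72 ± 0.05). Of the 6 genes in that list 5 were tested, with 2 higher, 1 lower and 2 that missed the threshold, beside the same shares of all genes. The median was 0.11.

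Other matrix genes were counted in a pair of lists, to be read beside the 37.5% of all tested genes that were lower and the 36.3% that were higher. Of 11 listed leucine-rich matrix genes 6 were tested. Lower calls numbered 4 and higher calls 1, and the median log2 fold change was -0.35. Prelp (-0.81 ± 0.09), Fmod (-0.43 ± 0.12) and Lum (-0.27 ± 0.06), which encode collagen-binding proteins, fell with Aspn, and Epyc rose (0.45 ± 0.14, adjusted p = 0.0963 with total counts alone). Dcn, the decorin gene, did not pass (0.03 ± 0.06) and was negative with total counts alone and with upper-quartile scaling. In the list of the SPARC family and other matricellular proteins, 9 of 11 were tested. Lower calls numbered 6 and higher calls 1, and the median was -0.54. Of the relatives of Sparc in it 3 were tested. Smoc1 (-0.79 ± 0.05) and Smoc2 (-0.54 ± 0.05) fell, and Spock2 (0.34 ± 0.29) did not pass. The thrombospondin gene Thbs1 fell to 1253 ± 23.3 CPM with CSE, against 13083 ± 344.6 CPM in the control (n = 3, SD, log2 fold change -3.38 ± 0.04 SE, edgeR adjusted p = 1.3e-19). Thbs2 was at -0.96 ± 0.04, and the periostin gene Postn was higher (0.53 ± 0.04). All named falls in this paragraph passed edgeR's test over all genes, the highest adjusted p being that of Fmod, 0.0044.

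**Figure D4:**
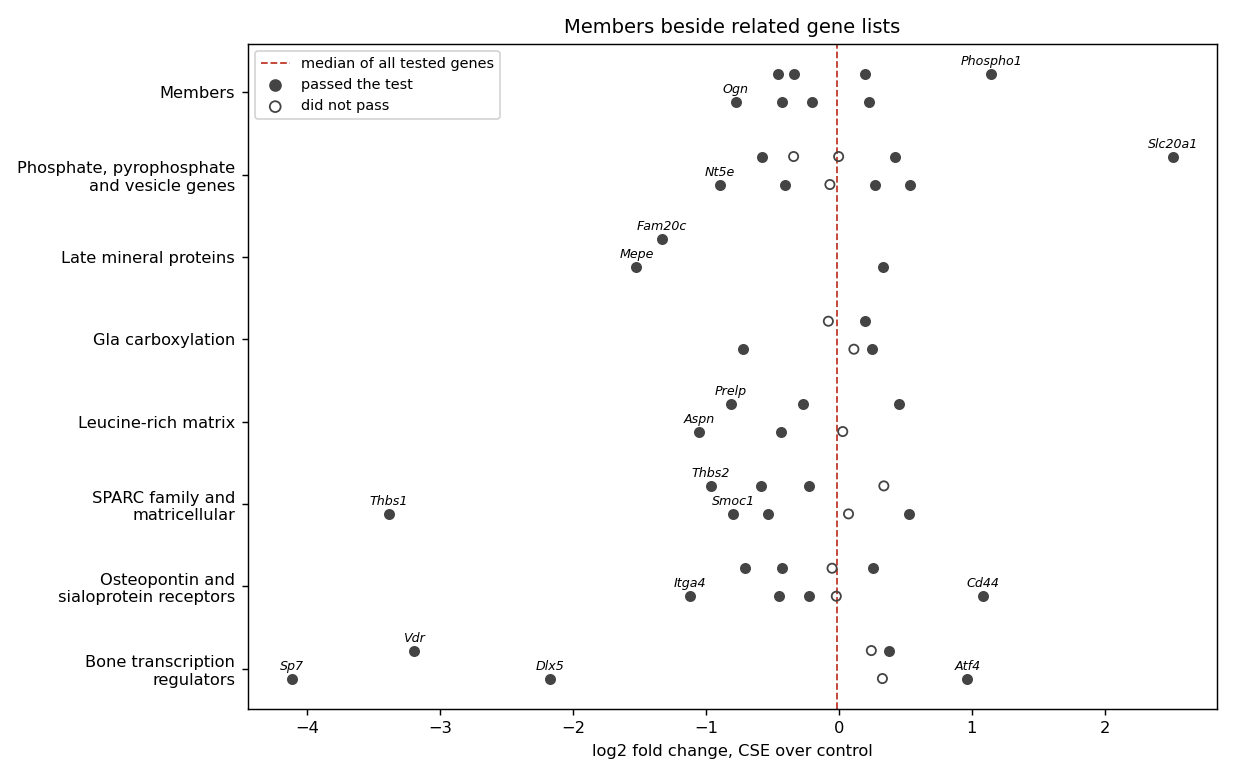
Log2 fold change of CSE over control for each tested gene of the members and of 7 related lists, 1 point per gene. Filled points passed the edgeR test, open points did not, the dashed line is the median of all tested genes (-0.02), and genes past 0.75 in either direction are named. Members lie between -0.77 and 1.15, while the transcription regulators reach down to -4.12 (Sp7) and up to 0.97 (Atf4).

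Receptors of osteopontin and bone sialoprotein were divided. All 9 genes were tested, and 2 were called higher and 5 lower, beside 36.3% higher and 37.5% lower of all tested genes. The median was -0.22. Cd44, a receptor for osteopontin and hyaluronan, rose to 874 ± 32.3 CPM with CSE, against 411 ± 13.2 CPM in the control (n = 3, SD, log2 fold change 1.09 ± 0.05 SE, edgeR adjusted p = 6.2e-13). Itgav and Itgb3, which form the main integrin for both ligands, did not pass (-0.05 ± 0.05 and -0.02 ± 0.06). Both were called lower with total counts alone and with upper-quartile scaling. Itga4 (-1.12 ± 0.14), Itga8 (-0.70 ± 0.07), Itgb5 (-0.43 ± 0.05) and Itga5 (-0.22 ± 0.04) fell, and Itgb1 rose (0.26 ± 0.04, adjusted p = 0.113 with total counts alone).

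Transcription regulators that act on these matrix genes in osteoblasts spread more widely than the members. Of 7 described, all tested, 2 were called higher and 3 lower, beside 36.3% higher and 37.5% lower of all tested genes. The median was 0.24 although the deepest changes were falls. Sp7 was at -4.12 ± 0.12, Vdr at -3.20 ± 0.08 and Dlx5 at -2.17 ± 0.12 on the log2 scale, while Atf4 (0.97 ± 0.05) rose with Runx2. The falls of Ibsp and Alpl were smaller than those of these 3 falling regulators. Over all 7 related lists 49 different genes were tested, of which 13 were called higher and 24 lower, to be read beside those same shares.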

How the data were processed

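RNA of 6 libraries, 3 with CSE and 3 controls, was sequenced. The authors deposited raw read counts per gene symbol, whole numbers with no normalization, in 1 column per library. HISAT2 2.0.4 and Rnor_6.0 are named in the submitters' processing notes, with no role given. The sources used here name no counting tool, annotation or strand setting.

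Columns were mapped to groups by their names, which match the sample titles, and no column was left out. Counts were filtered with filterByExpr of edgeR 4.0.16 (R 4.3.3), scaled with TMM and compared by the quasi-likelihood F test of edgeR (2-sided). P-values were adjusted by Benjamini-Hochberg across the 13390 genes tested, and genes below 0.05 were called. SE is the log2 fold change divided by the square root of F. Intervals are 95%. Alternatives used limma 3.58.1 and DESeq2 1.42.0. Chi-square per degree of freedom was 3.24 to 5.74 within and 179.5 to 216.7 across groups, so no library repeated another. Promoter sequences, neighbours and chromosomes come from RefSeq tables of GRCr8, a different build from that of the notes. Transcript lengths were not used, so sums and comparisons of CPM over different genes are shares of counts, not of transcripts.

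The members and gene lists were chosen with earlier results of these data known. All members were named, along with up to 4 called genes in each direction per list, by smallest p, and the genes nearest in pattern to 3 members. Some genes that this rule takes are not named, and an item of the regulator list is not reported here.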

Additional observations from a re-analysis of the deposited data

How the results depend on the processing

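Each tested member was refitted under 13 alternatives (3 other scalings, no filter on low counts, DESeq2, limma-voom, the replicate block and 6 fits without a library). Of these 104 values 92 kept direction and call, 12 kept direction and lost the call, and 0 reversed. The losses were 6 for Alpl, 3 for Ogn, 2 for Spp1 and 1 for Sparc. Phospho1 (0.96 to 1.32), Enpp1, Mgp and Ibsp (-0.53 to -0.22, highest adjusted p 0.0468) kept theirs. With total counts alone 1 member was higher, and 7 genes of the related lists were higher against 30 lower, beside 13 and 24 with TMM. That scaling lowers every log2 fold change by about the 0.19 given for the median. Without a library, 6 to 9 members were called, 3 to 4 higher and 3 to 5 lower, the lowest count of falls being reached without CSE replicate 1 or Control replicate 3. The difference in the log2 ratio of Alpl to Enpp1 counts was 0.15 to 0.28. Bglap is among the members called in 3 of these 6 fits. With all 6 libraries Bglap and Omd have no value with the filter.

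Deviations of same-numbered CSE and control libraries had correlations of -0.03 to 0.02, beside -0.08 to 0.09 for different numbers. With 3 libraries per group this cannot show whether samples were handled in pairs. With the replicate block 9756 genes and 8 members were called, against 9894 and 8 without it. Depth limits Bglap and Omd most, with 53 and 9 counts in all CSE libraries and 22 and 1 in all control libraries.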
